A study of Homo sapiens with 28 samples.

Results

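The collagen and laminin chains were described in MDA-MB-231 cells, an established human line of triple-negative breast carcinoma. The members are the protein-coding genes whose symbols follow the pattern of a collagen chain (COL, a number, A, a number) or a laminin chain (LAMA, LAMB or LAMC and a number). They number 56 of the 58735 genes in the count table, 44 for collagens and 12 for laminins. Of these, 34 had enough counts to be tested (23 collagen and 11 laminin genes), and 23 (14 and 9) reached a mean FPKM of at least 1 in some group. FPKM is a count scaled to gene length and library depth. A line with an empty vector (EV, genotype Control) was set beside one overexpressing Tpm2.1, a tropomyosin that TPM2 encodes and that lies along actin filaments; both were kept under puromycin. Attached cells were on tissue culture plates for 6 hours. Suspended cells were on ultra-low attachment plates, with times of 5 hours and of 1, 2 and 4 days. Suspended Tpm2.1 cells were split at each time on Annexin V beads, which hold dying cells, into an apoptotic and a non-apoptotic fraction. For EV cells, and for attached cells of either line, no split is given, and 1 line of each kind is described. This gave 14 groups of 2 libraries.

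Collagens, most of them secreted and a few transmembrane, are proteins wound from 3 chains. Laminins are cross-shaped trimers of an alpha, a beta and a gamma chain. Laminins and type IV collagen each form a network, and together these networks make up the basement membrane on which epithelial cells sit. Type VII collagen anchors that membrane to the tissue beneath, type VI collagen forms beaded filaments near it, and integrins on the cell surface bind many of these proteins.

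Promoter sequence from RefSeq (GRCh38.p14) was found for 41 of the 56 members. The 250 bases before the RefSeq start are shown for COL12A1, which fell furthest in suspension among the 23 members above, and for a pair of members that rose in both lines, COL7A1 and LAMA5. Each window is written 5′ to 3′ on the minus strand, where these genes lie, and holds no exon of GENCODE 29. Capitals mark matches, on either strand, to the letters GGGCGG (a GC box, bound by the SP family) or GGAATG (a core bound by TEAD factors). The windows are chr6:75206054-75206303, chr3:48595330-48595579 and chr20:62367313-62367562 in that order.
COL12A1: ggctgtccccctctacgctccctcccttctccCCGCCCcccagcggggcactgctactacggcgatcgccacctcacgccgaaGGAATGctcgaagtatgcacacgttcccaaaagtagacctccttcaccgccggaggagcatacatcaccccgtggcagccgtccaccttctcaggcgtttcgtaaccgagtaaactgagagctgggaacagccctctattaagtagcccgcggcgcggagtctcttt
COL7A1: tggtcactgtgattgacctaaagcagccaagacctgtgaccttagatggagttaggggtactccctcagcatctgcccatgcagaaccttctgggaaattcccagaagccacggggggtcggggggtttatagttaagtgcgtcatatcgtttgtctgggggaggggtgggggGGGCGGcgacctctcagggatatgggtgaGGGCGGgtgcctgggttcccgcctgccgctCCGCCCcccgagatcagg
LAMA5: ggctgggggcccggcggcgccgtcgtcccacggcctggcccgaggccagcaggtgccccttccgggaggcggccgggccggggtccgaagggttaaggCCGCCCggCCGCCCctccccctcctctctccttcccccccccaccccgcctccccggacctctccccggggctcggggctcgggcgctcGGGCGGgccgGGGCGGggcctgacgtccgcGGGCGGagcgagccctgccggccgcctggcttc
The COL12A1 window held 1 GC box and 1 TEAD core, the COL7A1 window 3 GC boxes and the LAMA5 window 5. The 41 members have 55 RefSeq starts, and so 55 windows. Some of these windows overlap, such as those of COL4A1 and COL4A2 and those of the COL5A1 starts, so a match can count in more than 1 window. A GC box was present in 32 (58.2%) of these windows, against 42.6% of all 35116 windows of that length. The TEAD core was found in 4 (7.27%), against 11.9% of all. The AP-1 letters TGANTCA were found in 3 (5.45%) against 6.57%, and CCAAT in 14 (25.5%) against 32.0%. The printed windows held neither. Overlapping matches were counted separately, and a match describes the letters and not a bound site.

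Libraries held 13043529 to 27416335 gene counts. TPM2 lay at FPKM 6.84 to 13.8 in EV libraries and 745 to 2366 in Tpm2.1 libraries. The apoptotic fraction at 4 days stood apart: a count was found for 18430 ± 349 genes (SD, n = 2), where the other 13 groups had means from 21520 upward, and 6.13% ± 0.382 of its counts lay on mitochondrial mRNAs (at most 4.60% in the mean of any other group). Of the markers of the labelled epithelial type, KRT8, KRT18 and KRT19 were present while CDH1 had 0 to 7 counts per library. EPCAM was low, at a group FPKM of 1.60 to 3.75, and KRT7 lay at 0 to 0.719. Summed FPKM over 6 epithelial markers ranged from 44.5 to 168 across groups (44.5 in the apoptotic fraction at 4 days), and over 3 mesenchymal ones from 208 to 527. Fibroblast markers, which would mark the usual makers of fibrillar collagen, summed to 0.213 to 2.63 over 6 genes, with PDGFRA, THY1 and FAP at 0 to 9 counts per library. DCN reached 86 counts and PDGFRB 349 (a group FPKM of up to 2.34); of the 3 fibroblast markers tested 2 rose in suspension in either line, and their part in the member values was not tested. Endothelial markers summed to 1.13 to 11.5 over 4 genes, leukocyte markers to 0.354 to 2.30 over 4 and basal markers to 0.562 to 1.43 over 5.

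The expressed members formed a restricted set. COL1A1 reached FPKM 9.73 and 10.4 in its highest group while COL1A2, the other chain of type I collagen, had 5 counts in all 28 libraries together. COL4A5 and COL9A1 had no count, and the 22 untested members had at most 134 counts in all and a group FPKM of at most 0.0985. Of the laminin chains 11 of 12 were tested; LAMC3 was not. Per length, the highest levels in attached EV cells were those of the laminin beta chains LAMB3 (FPKM 134 and 131) and LAMB2 (70.8 and 68.2). COL13A1, a transmembrane collagen, followed at 32.2 and 30.7, and COL6A1 lay at 31.1 and 30.6; these 2 did not separate. COL6A3 lay near 0.260 and 0.246.

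**Figure D1:**
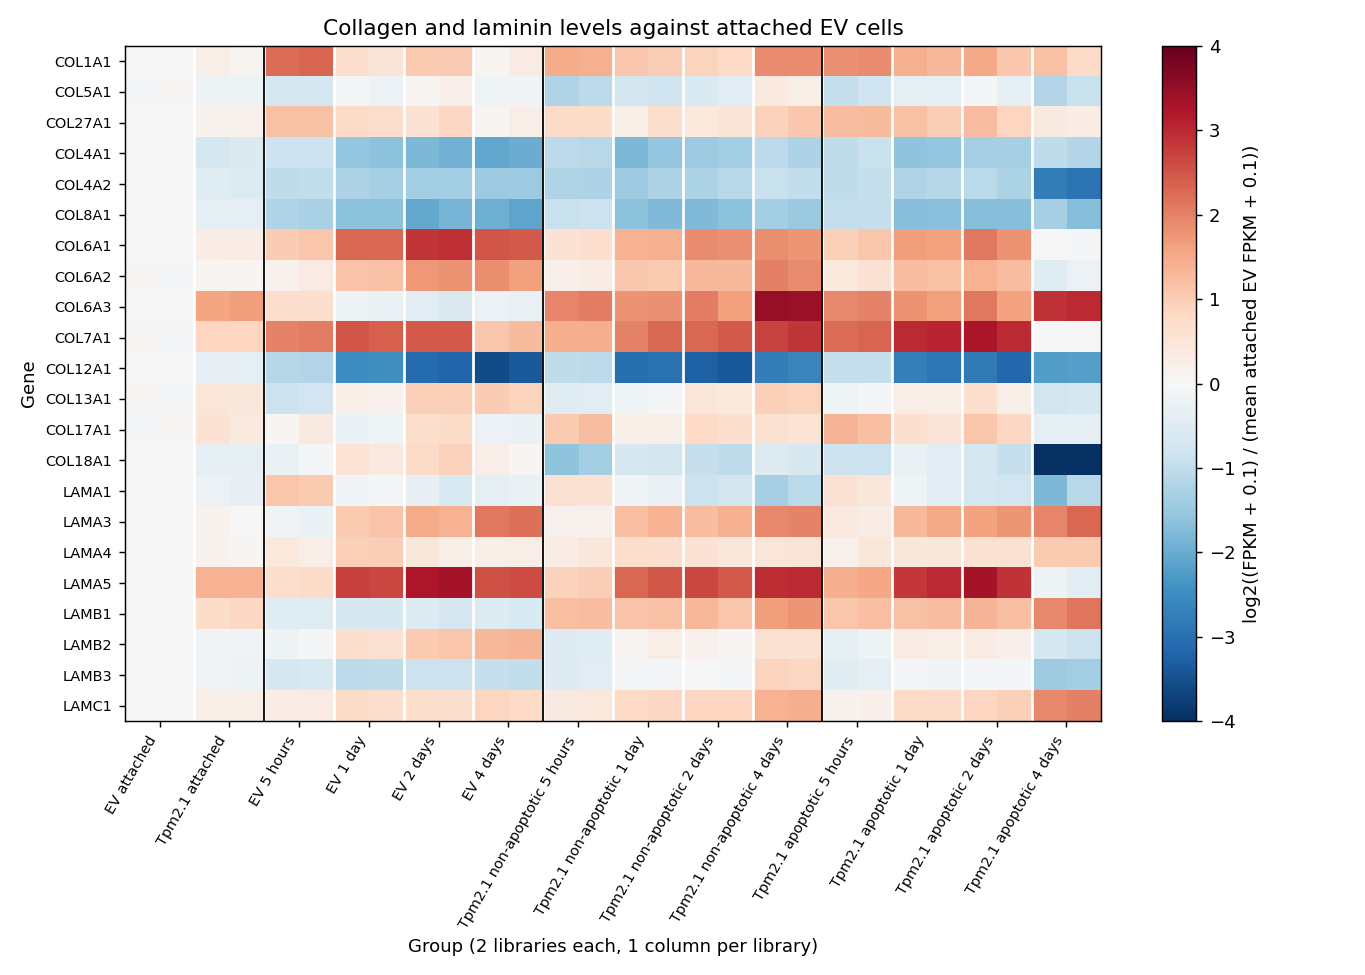
Level of 22 of the 23 members with a mean FPKM of at least 1 in some group (rows) in all 28 libraries (columns, 2 per group), as log2 of FPKM + 0.1 over that of the attached EV mean; red is higher and blue lower, and colours stop at 4 in either direction. COL12A1, COL4A1, COL4A2 and COL8A1 are blue in every suspended group, and LAMB1 is blue in suspended EV groups and red in every Tpm2.1 group.

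Collagen and laminin genes took a larger share of the library in every suspended group than in the attached cells of the line, except in the non-apoptotic fraction at 5 hours, whose libraries overlapped the attached ones. Together they held 0.297% ± 0.00336 of counts in attached EV cells (SD, n = 2) and 0.350% ± 0.00899 after 5 hours in suspension. After 1 day it was 0.522% ± 0.0145, after 2 days 0.672% ± 0.00859 and after 4 days 0.549% ± 0.000240. In attached Tpm2.1 cells the share was 0.318% ± 0.00151, and in the non-apoptotic fraction it was 0.322% ± 0.00662, 0.487% ± 0.0282, 0.557% ± 0.00763 and 0.759% ± 0.00248 at the same times. The laminins made up 0.498% ± 0.000802 at 4 days in that fraction. In the apoptotic fraction the share was 0.395% ± 0.0199 at 5 hours, 0.594% ± 0.00359 at 1 day and 0.666% ± 0.0642 at 2 days. These means were above those of the non-apoptotic fraction. At 4 days the apoptotic share was lower, at 0.343% ± 0.00487, with collagens at 0.0714% ± 0.00152. These shares were not tested. In bulk RNA, fewer cells making a transcript and less of it per cell cannot be told apart.

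**Figure D2:**
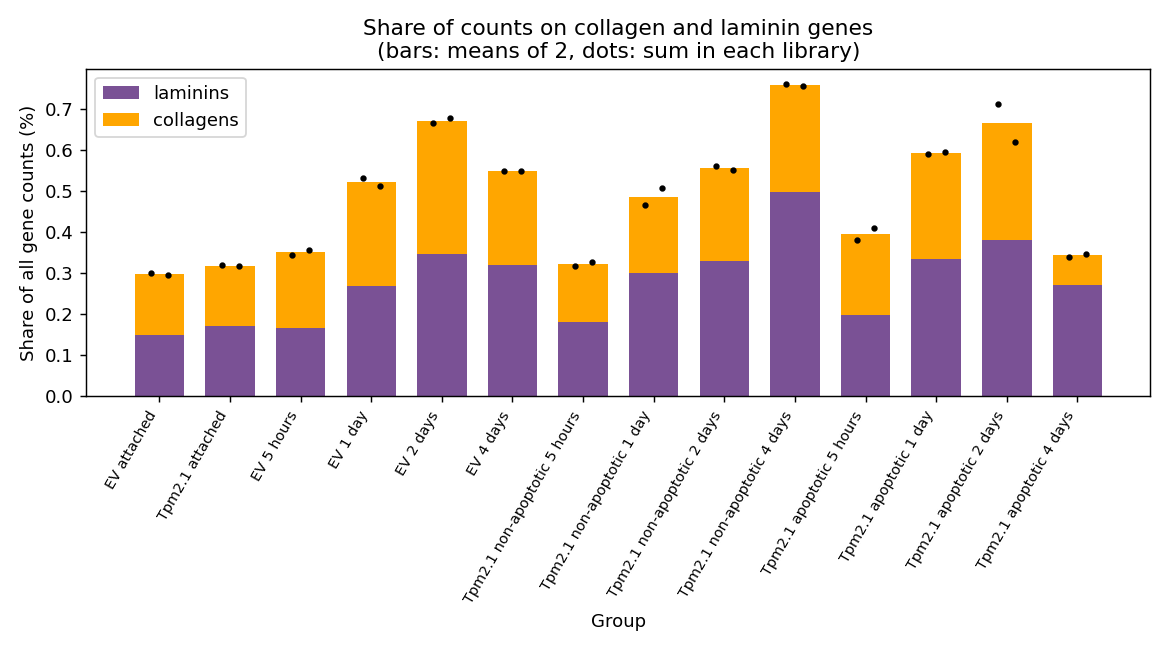
Share of all gene counts (%) on laminin genes (purple) and collagen genes (orange) in each of the 14 groups; bars are means of 2 libraries and dots the summed share in each library. The share is highest in the non-apoptotic fraction at 4 days (0.759%). In the apoptotic fraction it is 0.666% at 2 days and 0.343% at 4 days.

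Suspension was compared with attachment within each line, as the mean of the 4 times (8 libraries) against the attached group (2 libraries). Of the 34 members tested, 17 rose and 11 fell in EV cells, where 34.2% of all genes rose and 32.2% fell. In the non-apoptotic Tpm2.1 fraction also 17 rose and 11 fell, where 30.8% of all genes rose and 30.6% fell. The median log2 fold change of the members was 0.37 in EV and 0.27 in Tpm2.1 cells, beside 0.06 and 0.03 over all genes tested. Mitochondrial mRNAs rose in suspended EV cells in 13 of 13 (median 0.66) and fell in 12 of 13 in the non-apoptotic fraction (-0.71), and nuclear-retained RNAs rose in 4 of 4 (2.04) and 2 of 4 (0.05); their part in the member values was not tested. Adjusted p values are from edgeR's quasi-likelihood test with Benjamini-Hochberg adjustment over the 17191 genes tested, fold changes are log2 values with SE, and a gene rose or fell where adjusted p was under 0.05. The only attached time is 6 hours, so suspension and later times in culture cannot be told apart, nor can suspension and the bead split in Tpm2.1 cells. The attached libraries also carry names of another form than the suspended ones. A difference in preparation or sequencing between these sets, if any, could not be told apart from suspension.

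The chains of type VI collagen rose unevenly. COL6A1 (ENSG00000142156, chromosome 21, 45981737 to 46005050, plus strand; positions are hg38 gene bounds from GENCODE 29) stood at FPKM 31.1 and 30.6 in the attached EV libraries. It stood at 62.7 and 67.3 at 5 hours, 153 and 152 at 1 day, 224 and 236 at 2 days and 178 and 168 at 4 days. Every suspended EV library was thus above both attached ones, and the mean rise was 2.23 ± 0.060 (adjusted p = 1.83e-28). In Tpm2.1 cells COL6A1 went from 37.9 and 37.9 to 46.6 and 49.1, 82.0 and 83.2, 115 and 111 and 112 and 105, a rise of 1.16 ± 0.055. COL6A2, whose gene lies 93046 bases further along chromosome 21 on the same strand, rose by 1.28 ± 0.059 in EV and 1.07 ± 0.058 in Tpm2.1 cells. COL6A3, the long chain that completes the trimer, differed from attached EV cells by -0.12 ± 0.15 (adjusted p = 0.471), which did not pass, and rose by 0.73 ± 0.093 in Tpm2.1 cells. The EV mean of COL6A3 joins opposite moves. Its FPKM was above both attached EV libraries at 5 hours and below both at 1 day, 2 days and 4 days. After a correction for gene length the EV difference of COL6A3 passed as a fall of -0.45. The FPKM of COL6A3 was 0.00834 and 0.00803 times that of COL6A1 in attached EV libraries and 0.000714 and 0.000585 times at 2 days.

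COL7A1 (ENSG00000114270, chromosome 3, 48564073 to 48595267, minus strand) encodes the single chain of the anchoring fibrils. Its FPKM was 10.3 and 9.71 in attached EV libraries, 39.6 and 41.5 at 5 hours, 57.5 and 52.7 at 1 day, 55.4 and 55.6 at 2 days and 21.3 and 24.2 at 4 days. All suspended libraries were above the attached ones, and those of 4 days were below the earlier 3 times. The rise was 2.08 ± 0.074 in EV (adjusted p = 1.30e-24) and 1.37 ± 0.069 in Tpm2.1 cells. There the group mean climbed instead at each time, from 18.2 and 18.2 attached to 27.4 and 27.5 at 5 hours, 39.8 and 49.9, 49.4 and 55.5 and then 65.7 and 72.7 at 4 days.

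Among the 23 members that reached FPKM 1, the largest fall was that of COL12A1 (ENSG00000111799, chromosome 6, 75084326 to 75206051, minus strand), a fibril-associated collagen. In EV libraries its FPKM went from 12.4 and 12 attached to 5.54 and 5.32 at 5 hours, 2.09 and 2.15 at 1 day, 1.36 and 1.24 at 2 days and 0.940 and 1.11 at 4 days. In Tpm2.1 cells it went from 9.82 and 9.61 to 6.02 and 5.91, 1.41 and 1.46, 1.19 and 1.08 and 1.71 and 1.87. No suspended library of either line reached the level of an attached one, with mean changes of -2.59 ± 0.053 (adjusted p = 5.05e-32) and -2.22 ± 0.053 (adjusted p = 6.99e-30).

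COL4A1, COL4A2 and COL8A1, which form networks, fell. COL4A1 and COL4A2, the pair of chains that make the common type IV collagen, lie head to head on chromosome 13 with RefSeq starts 126 bases apart. In EV libraries the FPKM of COL4A1 was 12.2 and 12.2 attached, 6.83 and 6.71 at 5 hours, 4.15 and 3.88 at 1 day, 3.43 and 3.15 at 2 days and 2.84 and 3.03 at 4 days. COL4A2 stood at 18.1 and 18.1, 8.82 and 9.0, 7.68 and 7.10, 6.80 and 6.94 and 6.56 and 6.56 in the same groups. Both were lower in every suspended EV library than in either attached one, with changes of -1.56 ± 0.051 and -1.25 ± 0.047 (adjusted p = 1.12e-25 and 6.70e-24). In Tpm2.1 cells the changes were -0.66 ± 0.053 and -0.64 ± 0.048. COL8A1, a short-chain network collagen, changed by -1.69 ± 0.053 and -1.04 ± 0.054 in EV and Tpm2.1 cells. The GENCODE models of COL4A1 and COL4A2 overlap on opposite strands, and strand use in counting is not stated, so a part of the reads of 1 may have been counted for the other. The same holds for LAMB1 and DLD, LAMA5 and ADRM1, and COL18A1 and SLC19A1.

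Among fibrillar collagens COL1A1 rose early in EV cells, from FPKM 1.98 and 2.02 to 9.73 and 10.4 at 5 hours, and lay at 2.10 and 2.52 at 4 days. In the non-apoptotic fraction it lay at 5.77 and 5.57 at 5 hours and 7.66 and 7.61 at 4 days, from 2.35 and 2.17 attached. The mean rises were 1.10 ± 0.091 and 1.19 ± 0.086. COL27A1, whose chain forms thin cartilage fibrils, rose by 0.78 and 0.57. COL5A1, a regulator of fibril width, changed by -0.18 ± 0.072 and -0.31 ± 0.072; the EV value did not pass among protein-coding genes alone, nor without EV attached replicate 2 (-0.12) or EV 1 day replicate 2 (-0.16). Its partner COL5A2, under FPKM 1 in every group, changed by -1.52 ± 0.20 and -0.58 ± 0.19, and the second of these did not pass without Tpm2.1 attached replicate 1 (-0.41).

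The transmembrane collagen COL13A1 changed by 0.37 ± 0.061 in EV and -0.23 ± 0.058 in Tpm2.1 cells, with a fall at 5 hours in both lines (-0.79 and -0.92) and a level above attached cells at 4 days (1.02 and 0.49). COL17A1, the hemidesmosome collagen, differed by 0.17 ± 0.093 in EV cells (adjusted p = 0.112) and rose by 0.22 ± 0.084 in Tpm2.1 cells. The latter call was lost with DESeq2, with no filter, with a length correction and without Tpm2.1 attached replicate 2 (0.12), non-apoptotic 5 hours replicate 2 (0.19) or non-apoptotic 2 days replicate 1 (0.20). COL18A1, a secreted multiplexin and the source of endostatin, rose by 0.38 ± 0.065 in EV and fell in Tpm2.1 cells (-0.56 ± 0.066).

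**Figure D3:**
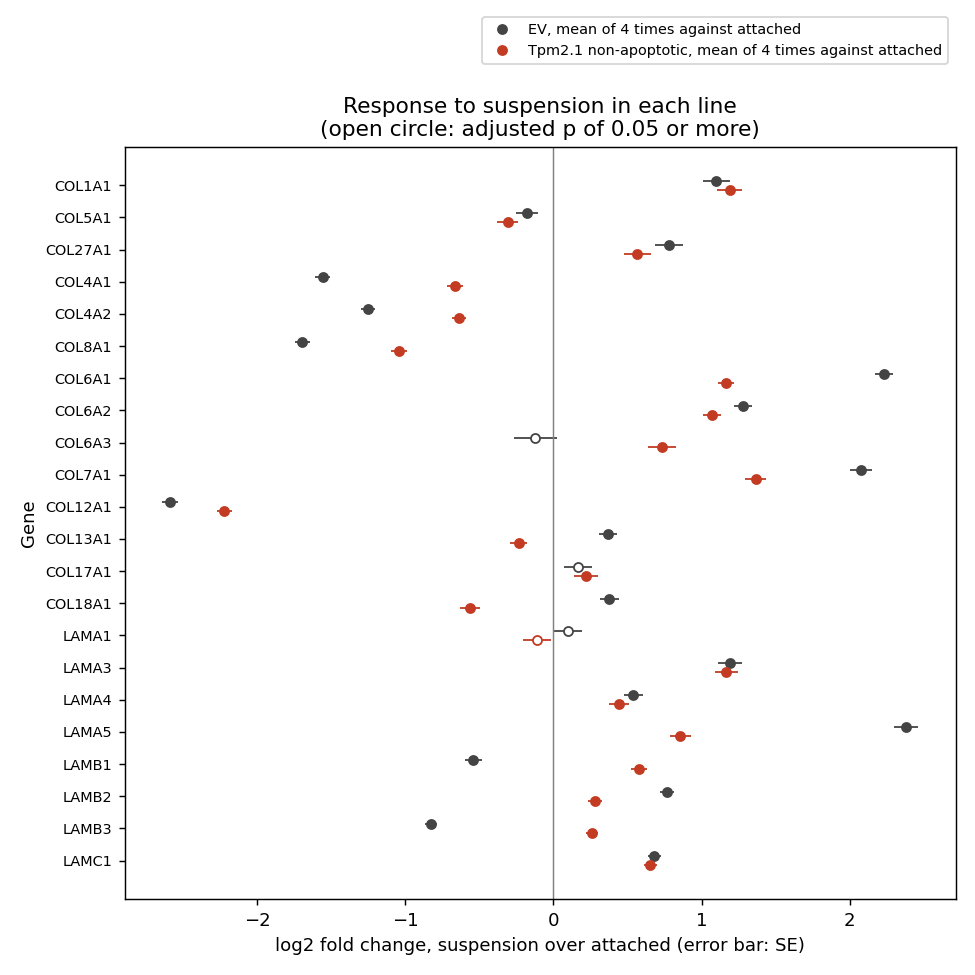
Log2 fold change of suspension (mean of 4 times) over attached cells for 22 of the 23 members with an FPKM of at least 1 in some group, in EV (grey) and non-apoptotic Tpm2.1 cells (red); bars are SE and open circles did not pass. LAMB1, LAMB3, COL13A1 and COL18A1 lie on opposite sides of 0 in the lines with both values passing, and COL12A1 lies furthest to the left in both (-2.59 and -2.22).

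The laminin alpha chains LAMA3, LAMA4 and LAMA5 rose in both lines. LAMA5 (ENSG00000130702, chromosome 20, 62307955 to 62367312, minus strand), the alpha chain of the most widespread adult laminins, had an FPKM of 9.08 and 9.11 in attached EV libraries, 15.0 and 15.4 at 5 hours, 61.5 and 58 at 1 day, 86.8 and 93.0 at 2 days and 53.9 and 55.5 at 4 days. The suspended libraries did not overlap the attached ones, and the rise was 2.38 ± 0.079 (adjusted p = 1.92e-25). In Tpm2.1 cells it started higher, at 24.2 and 24.0, fell to 17.2 and 18.3 at 5 hours (-0.44 ± 0.084) and then stood at 44.7 and 51.5, 58.5 and 50.6 and 70.9 and 73.3, a mean rise of 0.86 ± 0.070. LAMA3, the alpha chain of epidermal laminin, rose by 1.19 ± 0.080 and 1.17 ± 0.077, and the difference between lines of -0.02 ± 0.11 did not pass (adjusted p = 0.894). Its rise came after the first time: at 5 hours it differed from attached cells by -0.19 and 0.10 (adjusted p = 0.14 and 0.453), and at 4 days it had risen by 2.26 and 1.96. LAMA4 rose by 0.54 and 0.44. LAMA1, an embryonic alpha chain, rose at 5 hours (1.17 and 0.93) and had fallen at 4 days (-0.29 and -0.98), so its means of 0.10 and -0.11 did not pass.

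LAMB1 and LAMB3 moved in opposite directions in the lines, and LAMB2 rose in both. LAMB3 (ENSG00000196878, chromosome 1, 209614870 to 209652466, minus strand) stood at 134 and 131 in attached EV libraries, then at 83.3 and 87.1, 63.7 and 65.8, 73.3 and 73.7 and 69.6 and 67.3 at the 4 times. In Tpm2.1 cells it stood at 119 and 116 attached, then at 91.7 and 95.7, 127 and 127, 131 and 128 and 243 and 233. All suspended EV libraries were below the attached ones (-0.83 ± 0.039), while the Tpm2.1 mean of 0.26 ± 0.041 rested on 4 days, and without that time it was -0.0034 and did not pass. LAMB1, the beta chain paired with LAMA5 in many tissues, fell in EV cells (-0.54 ± 0.058) from 8.16 and 8.11 to between 5.11 and 5.83. It rose in Tpm2.1 cells (0.58 ± 0.054) from 13.6 and 14.5 to between 17.8 and 27.7. LAMB2 rose by 0.77 ± 0.048 and 0.28 ± 0.047, the latter not passing without 4 days (0.10).

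Among the gamma chains LAMC1, the one found in most laminins, rose in both lines. Its FPKM was 21.3 and 21.5 in attached EV libraries, then 26.5 and 26.8, 35.9 and 35.1, 35.0 and 33.8 and 38.9 and 37.2 at the 4 times. In Tpm2.1 cells it was 25.1 and 25.7 attached, then 27.7 and 29, 37.2 and 38.2, 39.2 and 38.8 and 56.4 and 58.2. No suspended library overlapped the attached ones of its line, and the mean rises were 0.68 ± 0.042 and 0.66 ± 0.042 (adjusted p = 4.25e-17 and 9.87e-17). The difference between the lines of -0.03 ± 0.057 did not pass (adjusted p = 0.767).

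**Figure D4:**
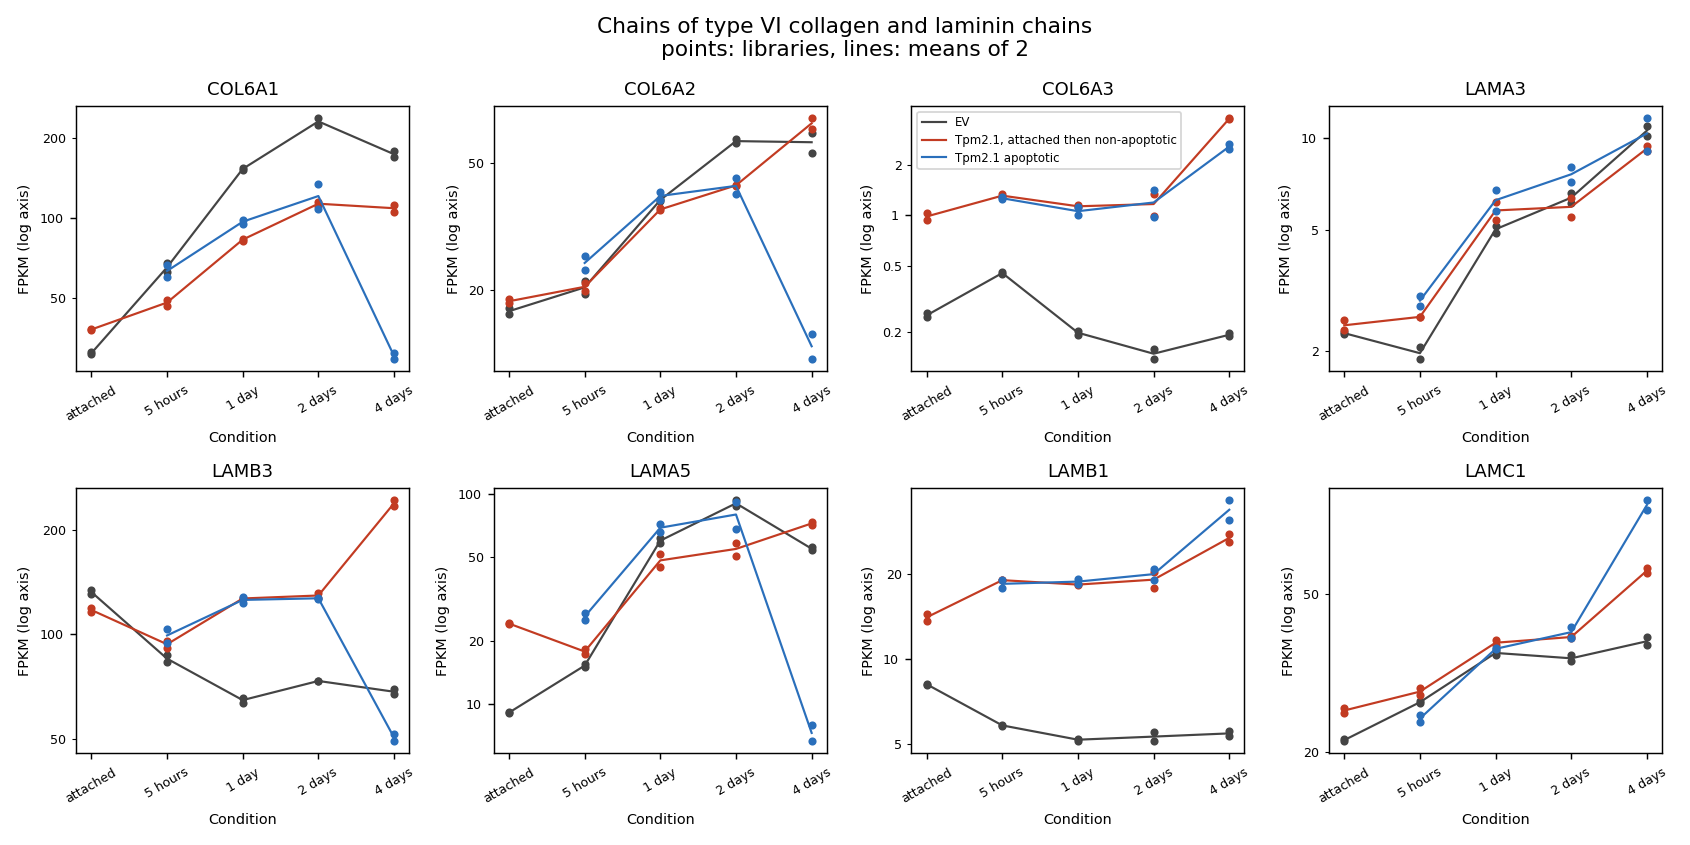
FPKM (log axis) of the chains of type VI collagen and of 5 laminin chains in attached cells and at 4 times in suspension; points are libraries and lines join means of 2. LAMB1 and COL6A3 stay higher in Tpm2.1 (red) than EV cells (grey) throughout, and COL6A1, COL6A2, LAMB3 and LAMA5 drop in the apoptotic fraction (blue) at 4 days.

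The difference in response between the lines was tested directly, as the Tpm2.1 change minus the EV change. It passed in 16 members, 9 in which Tpm2.1 was higher and 7 in which it was lower, where 17% of all genes were higher and 16.6% lower. Members more negative in Tpm2.1 cells were led by LAMA5 (-1.52 ± 0.097), COL6A1 (-1.07 ± 0.074) and COL18A1 (-0.94 ± 0.093). Those more positive included LAMB1 (1.12 ± 0.079) and LAMB3 (1.09 ± 0.057), with adjusted p of 6.29e-14 and 1.39e-17 in edgeR's test, and COL4A1 (0.90 ± 0.077). Among members this difference ran against GC content, with r = -0.53 over 34 genes, against r = -0.11 over all genes. That is a description across genes, which are not replicates. After a GC correction 9 members were higher and 6 lower, where 22.6% of all genes were higher and 13% lower. With 4 days left out of the means, 6 members were higher and 10 lower. Of the 17191 genes tested, 3202 were then higher and 2888 lower.

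Before detachment the lines already differed. In attached Tpm2.1 cells 9 members were higher and 7 lower than in attached EV cells, where 10.4% of all genes were higher and 10.1% lower. COL6A3 was higher, at FPKM 0.944 and 1.03 against 0.260 and 0.246 (1.97 ± 0.14, adjusted p = 1.63e-13). So were LAMA5 (1.42 ± 0.087), COL7A1 (0.87 ± 0.083), LAMB1 (0.80 ± 0.069) and COL17A1 (0.52 ± 0.11). COL4A1 and COL4A2 were lower (-0.64 ± 0.067 and -0.50 ± 0.062), as were COL8A1 (-0.36), COL18A1 (-0.34) and COL12A1 (-0.32). The libraries of the lines did not overlap for any of these. COL6A1 was higher by 0.31 and LAMC1 by 0.26, and LAMB3 was lower (-0.16), a call lost when any 1 of the 4 attached libraries was left out. After a GC correction 9 members were higher and 9 lower, where 9.19% of all genes were higher and 16.1% lower. When only the 4 attached libraries were fitted, 30 members were tested. Of these 10 were higher and 11 lower, where 17.1% of all genes were higher and 18.2% lower.

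In suspension, where line and bead split cannot be told apart, 12 members were higher and 10 lower in the non-apoptotic Tpm2.1 fraction than in EV cells, as the mean of 4 within-time differences. Over all genes 28.6% were higher and 32% lower. The balance of members turned when 4 days was left out of the mean, to 9 higher and 14 lower. Of the 17191 genes tested, 5047 were then higher and 5143 lower. COL6A3 was the furthest apart, by 2.83 ± 0.077 in the mean and 4.29 ± 0.15 at 4 days, when it stood at FPKM 3.81 and 3.78 against 0.198 and 0.189. LAMB1 (1.92 ± 0.037) and LAMB3 (0.93 ± 0.026) were also higher. COL18A1 (-1.28 ± 0.044), COL6A1 (-0.76 ± 0.032) and LAMB2 (-0.62 ± 0.029) were lower, and after a GC correction 15 members were higher and 6 lower, where 30.7% of all genes were higher and 29.3% lower. Several members crossed over with time. COL7A1 was lower at 5 hours (-0.58) and higher at 4 days (1.60), and COL1A1 went from -0.85 to 1.72.

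Between 5 hours and 4 days in suspension, 11 members rose and 14 fell in EV cells, where 28.3% of all genes rose and 24.5% fell. In the non-apoptotic fraction 19 rose and 6 fell, where 29.9% of all genes rose and 25% fell. The member medians were -0.44 and 0.50, beside -0.00 and 0.04 over all genes. COL1A1 fell in EV cells (-2.10 ± 0.11) and rose in the fraction (0.47 ± 0.095). COL7A1 did likewise (-0.81 ± 0.081 and 1.37 ± 0.080), as did COL6A3 (-1.20 ± 0.19 and 1.56 ± 0.11) and LAMB3 (-0.29 ± 0.052 and 1.38 ± 0.052). LAMA3 rose in both (2.44 ± 0.098 and 1.87 ± 0.091), with LAMA5 (1.87 and 2.06) and COL6A1 (1.43 and 1.22). COL12A1 (-2.38 and -1.70) and LAMA1 (-1.46 and -1.91) fell in both. The difference between the lines in this change was not tested.

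The apoptotic and non-apoptotic fractions of Tpm2.1 cells differed in opposite ways early and late. Signs of RNA content moved with the fractions: mitochondrial mRNAs were higher in the apoptotic fraction in 13 of 13 at 5 hours, 1 day and 2 days (medians 1.62, 1.54 and 1.36) and in 12 at 4 days (2.07). Of 4 nuclear-retained RNAs 2, 3, 2 and 4 were higher at those times (medians 0.73 to 1.02). Their part in the member values was not tested. At 5 hours 10 members were higher and 2 lower in the apoptotic fraction, where 9.66% of all genes were higher and 11.8% lower. At 1 day 9 were higher and 2 lower (7.99% and 11.3% of all genes), and at 2 days 7 were higher and 0 lower (6.92% and 9.71%). At 4 days 5 were higher and 16 lower (35.3% and 36.8%). In the mean of all 4 times 6 were higher and 10 lower (25.6% and 32.4%), and in the mean without 4 days 16 were higher and 2 lower (16.7% and 21.8%). Single libraries weighed on the small counts. Leaving out the apoptotic replicate 1 at 1 day left 5 of 11 passing and the non-apoptotic replicate 1 left 7, and leaving out the apoptotic replicate 1 at 2 days left 4 of 7 where leaving out its replicate 2 gave 11.

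COL7A1 showed both sides. Its apoptotic and non-apoptotic libraries stood at FPKM 47.8 and 50.9 against 27.4 and 27.5 at 5 hours, 80.1 and 83.4 against 39.8 and 49.9 at 1 day and 96.8 and 79.5 against 49.4 and 55.5 at 2 days. The apoptotic libraries were higher without overlap, by 0.86 ± 0.079, 0.84 ± 0.078 and 0.74 ± 0.078. At 4 days they stood at 10.2 and 10.00 against 65.7 and 72.7, a difference of -2.77 ± 0.088 (adjusted p = 1.92e-26 in edgeR's test). LAMA5 was higher by 0.57, 0.49 and 0.53 at the first 3 times and lower at 4 days (-3.30 ± 0.095), from 70.9 and 73.3 to 7.91 and 6.66. COL18A1 was higher at 5 hours (0.65) and at 4 days had the furthest fall, -5.42 ± 0.19, from 7.53 and 6.90 to 0.104 and 0.230.

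Partners of the same protein parted at 4 days. COL4A2 was lower in the apoptotic fraction (-1.95 ± 0.077, FPKM 2.57 and 2.26 against 9.62 and 9.16) while COL4A1 differed by 0.06 ± 0.077 (adjusted p = 0.498). LAMB3 was lower (-2.23 ± 0.055, 49.4 and 51.8 against 243 and 233) while LAMA3 differed by 0.17 ± 0.086, which did not pass (adjusted p = 0.0722). COL6A1 (-1.84 ± 0.069) and COL6A2 (-2.32 ± 0.076) were lower by more than COL6A3 (-0.55 ± 0.11). In the trimer of LAMA5, LAMB1 and LAMC1, LAMA5 was lower while the beta (0.34 ± 0.066) and gamma chains (0.56 ± 0.050) were higher, as were COL12A1 (0.52 ± 0.096) and LAMA4 (0.57 ± 0.084).

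These differences moved with GC content. GC content is the share of G and C bases, here in the longest transcript of a gene. Over the 23 members with an FPKM of at least 1, the 4-day difference had r = -0.87 and rho = -0.91 with GC content, and the 5-hour difference r = 0.83 and rho = 0.87. Over all 17183 genes tested with a GC value, r was -0.68 at 4 days and 0.26 at 5 hours. Those are descriptions across genes that share libraries. The members tested had a median GC content of 57.4%, against 48.1% for all genes tested. Their median gene length, as given in the count table, was 8897 bases against 4299. After removal of a smooth GC trend, 14 members were higher and 5 lower in the apoptotic fraction at 4 days, where 28% of all genes were higher and 28.3% lower. The 4-day differences of COL7A1, LAMA5, COL18A1 and LAMB3 shrank with that correction to -0.26, -0.60, -2.64 and -0.63, all still passing. Those of COL6A1 and COL6A2 turned to 0.50 and 0.39 and passed, while that of COL4A2 became 0.14 and did not (adjusted p = 0.108). COL4A1 and LAMA3, which had not passed, were higher by 1.09 and 0.48 and passed. At 5 hours the correction left 3 members higher and 2 lower, where 4.57% of all genes were higher and 12.9% lower. It kept COL7A1 (0.53) and COL18A1 (0.27) among those passing, and LAMA5 was at 0.20 and did not pass (adjusted p = 0.0524). In the mean without 4 days it left 11 higher and 3 lower, where 14.2% of all genes were higher and 26.7% lower.

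**Figure D5:**
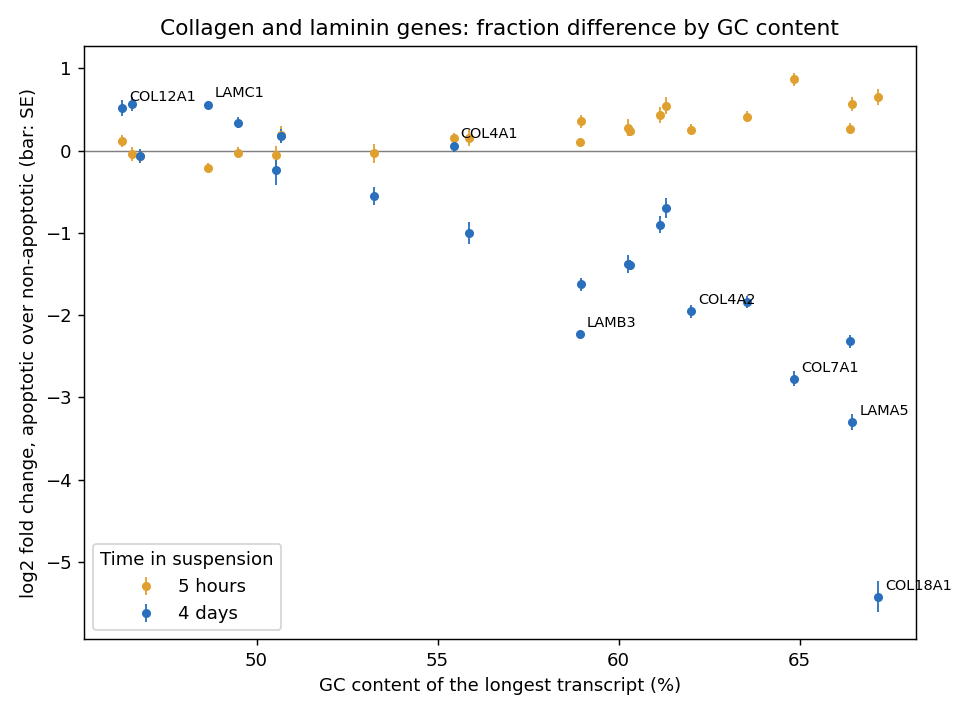
Log2 fold change of the apoptotic over the non-apoptotic fraction at 5 hours (yellow) and 4 days (blue) against GC content in percent, for 22 of the 23 members with an FPKM of at least 1 in some group; bars are SE. At 4 days the points run from 0.57 for LAMA4 to -5.42 for COL18A1, which has the highest GC content of the members shown. At 5 hours the slope is the other way.

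The gene lists are read against the 34.2% of all genes that rose and 32.2% that fell in suspended EV cells, and 30.8% and 30.6% in Tpm2.1 cells. Of 19 tested genes for collagen modification and folding, 8 rose and 8 fell in suspended EV cells and 10 rose and 4 fell in the non-apoptotic fraction (list medians 0.05 and 0.24). P4HA1, a catalytic chain of prolyl 4-hydroxylase, rose by 1.18 ± 0.058 and 1.75 ± 0.058, and PLOD1, a lysyl hydroxylase, by 0.71 and 0.80. P3H2, a prolyl 3-hydroxylase that acts on type IV collagen, fell (-1.5 ± 0.061 and -0.96 ± 0.059). Of 13 genes for procollagen processing and cross-linking 4 rose and 4 fell in either line. The transglutaminase TGM2 (-2.19 and -1.11) and the lysyl oxidase family members LOXL1 (-1.45 and -1.69) and LOXL2 (-0.74 and -0.43) fell, and LOX rose (0.73 and 0.92).

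Of 9 tested partners in the basement membrane 3 rose and 3 fell in EV cells and 1 rose and 6 fell in Tpm2.1 cells. EFEMP1, a fibulin, fell (-2.36 and -1.59). In the mean of the times so did NTN4, a netrin that binds laminin (-0.37 and -0.78), and AGRN, a heparan sulphate proteoglycan (-0.22 and -0.46). AGRN was lowest at 5 hours and then climbed. Its mean FPKM in EV cells was 39.0 attached, 18.0 at 5 hours, 45.1 at 2 days and 42.4 at 4 days. In Tpm2.1 cells it was 38.1 attached, 16.7 at 5 hours and 45.3 at 4 days. NTN4 stood at 33.3 attached and 42.8 at 4 days in EV cells, and at 25.0 and 13.1 in Tpm2.1 cells. DST, which joins keratins to hemidesmosomes, rose in EV (0.94) and fell in Tpm2.1 cells (-0.27). Of 14 tested receptors 9 rose and 2 fell in EV and 8 rose and 3 fell in Tpm2.1 cells, with medians of 0.87 and 0.59. DDR1, a collagen-binding receptor kinase, rose by 1.62 and 0.81, and RPSA, a ribosomal protein also known as a laminin receptor, fell (-0.87 and -0.63). Some integrin chains moved further than DDR1. The mean FPKM of ITGA2 went from 12.2 attached to 96.3 at 5 hours and 108 at 4 days in EV cells. In Tpm2.1 cells it went from 25.3 to 101 and 252. That of ITGA10 went from 0.245 attached to 17.3 at 4 days in EV cells and from 0.485 to 2.63 in Tpm2.1 cells. Of 10 TGF-beta inputs, which act on many collagen genes, 5 rose and 3 fell in either line. TGFB1 rose (0.64 and 0.44), TGFBR2 rose (0.50 and 0.85) and SMAD3 fell (-0.66 and -0.60).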

How the data were processed

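The authors deposited counts per gene, and FPKM values of the same libraries in a separate table, each with 58735 genes and 28 libraries. Messenger RNA was selected on poly-T beads and copied from random primers, per the labels' protocols. The submitters' processing notes name hg38 and DESeq2 without a role; aligner and counter are not given. The deposited FPKM were count over gene length over 0.856 to 1.08 times the summed counts, and gene models matched GENCODE release 29. Titles speak of biological replicates without saying how cultures were set apart. The p values thus measure only the spread within groups of 2 libraries, pooled over the 14 groups, and that spread may be technical.

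From the counts, edgeR 4.0.16 (TMM, filterByExpr, 1 mean per group over all 28 libraries, quasi-likelihood F test) tested 17191 genes on 14 residual degrees of freedom, with a common biological coefficient of variation of 4.77%. SE was approximated as the absolute log2 fold change over the square root of F. Benjamini-Hochberg adjustment ran over all genes of a comparison, and means over times weight times equally. Scripts were tested on simulated data. Alternatives were DESeq2 1.42.0 or only its size factors, no low-count filter, protein-coding genes or a comparison's own libraries alone, a replicate block, leaving out each library, GC or length correction (lowess, span 0.2) and means without 4 days. That mean with GC correction, and single times of the fractions under the alternatives, were added after seeing the data. Members and gene lists were chosen with earlier results of these data known. Named with full statistics were at most the 8 passing members of largest change in a comparison, and partners of a trimer or pair; from each list, genes among the 4 smallest p in either line. Other members are given by value only as far as the text turns on them. A single member is left out of the values and figures and is not reported here; it stays in counts, shares, medians and correlations. Of 20 collagen modification genes, 19 were found by symbol.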

Additional observations from a re-analysis of the deposited data

Results flagged for a closer look

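The response to suspension differed between the lines, by the interaction term of edgeR's quasi-likelihood test, in 16 members, of which 15 are given; values are the log2 change of the non-apoptotic Tpm2.1 fraction minus that of EV cells. Members less raised or more lowered in Tpm2.1 cells were LAMA5 (-1.52), COL6A1 (-1.07), COL18A1 (-0.94), COL7A1 (-0.71), COL13A1 (-0.60), LAMB2 (-0.49) and COL6A2 (-0.21). Of these COL18A1 and COL13A1 rose in EV and fell in Tpm2.1 cells. The COL6A2 difference was 0.13 after a GC correction and did not pass with DESeq2, with DESeq2's size factors, with no filter, or without any 1 of the 4 attached libraries (-0.24 to -0.17) or 1 of 8 suspended ones. Members more raised or less lowered in Tpm2.1 cells were COL12A1 (0.37), COL4A2 (0.61), COL8A1 (0.65), COL6A3 (0.85), COL4A1 (0.90), COL5A2 (0.94), LAMB3 (1.09) and LAMB1 (1.12). Of these LAMB1 and LAMB3 fell in EV and rose in Tpm2.1 cells, LAMB3 not without 4 days. Without 4 days the differences of COL12A1 (0.11), COL6A3 (0.37) and COL5A2 (0.68) did not pass, and that of COL5A2 did not pass without EV attached replicate 2 (0.68) or Tpm2.1 attached replicate 2 (0.78) either.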

How the results depend on the processing

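Counts of members passing in the comparisons of suspension with attachment and of 4 days with 5 hours stayed within 1.5 times under every alternative run, and so did those of the lines and their interaction except where given here. The replicate block left every count within 1.5 times, for instance 17 rises and 11 falls in suspended EV cells with it. Over 91 pairs of groups, same-numbered libraries deviated together with r between -0.075 and 0.054. That shows no shared shift by number, and the main fit did not pair libraries. It cannot show that cultures of the same number were unrelated. With DESeq2's size factors, with DESeq2, among protein-coding genes and with the libraries of the comparison alone, 1 member was lower in the apoptotic fraction at 1 day. With the libraries of the comparison alone 11 members were lower in attached Tpm2.1 cells and 10 higher, of 30 tested. With no filter 3 members were higher in the apoptotic fraction in the mean, and with a length correction 2; at 2 days the latter left 4 passing, all 4 higher. With the GC correction 14 were higher and 3 lower in that mean, 14 higher and 5 lower at 4 days, 5 passed at 5 hours with 3 higher, 7 passed at 1 day with 1 lower, and 6 members were lower in Tpm2.1 than EV cells in suspension. Without 4 days 16 were higher and 2 lower in the apoptotic fraction; with the GC correction as well, 11 higher and 3 lower, and 6 members lower in Tpm2.1 than EV cells.

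Leaving out each library in turn, members higher in the mean of the fractions numbered 3 to 7, with 3 without the non-apoptotic replicate 1 at 1 day. At 5 hours 0 to 2 were lower. At 1 day 5 to 7 passed, 4 to 7 higher and 0 to 1 lower. At 2 days 4 to 11 passed, 3 to 10 higher and 0 to 1 lower. Each such group of 1 library was assumed to vary like the others. Among the 22 members given by value, 6 of those passing in the mean of the fractions turned sign with the GC correction, 10 without 4 days and 8 with both; LAMA5, for instance, went from -0.43 to 0.10, 0.53 and 0.34, and COL6A1 from -0.28 to 0.19, 0.23 and 0.085. The cause of the sign changes given here was not tested. In Tpm2.1 against EV cells in suspension, the GC correction gave LAMA5 0.22, COL13A1 0.0079, COL6A2 0.23 and COL27A1 0.14. Without 4 days that comparison gave COL7A1 -0.32, COL4A2 -0.0205, COL12A1 -0.21 and COL1A1 -0.20. With both changes it gave LAMA5 0.0663, COL7A1 -0.0257, COL6A2 0.15, COL12A1 -0.25 and COL1A1 -0.019. For the interaction, COL6A2 was 0.13 with the GC correction and 0.0528 with both changes, and COL1A1 -0.39 without 4 days. LAMB3 in suspended Tpm2.1 cells was -0.0034 without 4 days. At 4 days the GC correction turned the difference positive, with a passing call, for LAMB2 (0.43), COL6A1 (0.50), COL6A2 (0.39), COL1A1 (1.06), COL27A1 (1.29) and COL5A1 (0.44), and without one for COL4A2 (0.14), COL6A3 (0.16) and COL17A1 (0.10). The length correction gave COL4A1 -0.25 there. The 11 tested members under FPKM 1 and the 22 untested ones are limited by depth.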

Other observations

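Some members stayed under FPKM 1 in every group but passed in suspension. COL4A4, a chain of the type IV collagen of kidney and lung membranes, stood at FPKM 0.128 and 0.0702 in attached EV libraries and 0.294 and 0.407 at 4 days. It stood at 0.135 and 0.128 in attached Tpm2.1 libraries and 0.511 and 0.576 in the non-apoptotic fraction at 4 days. It rose by 1.52 ± 0.26 and 1.24 ± 0.23 in the mean of the times (edgeR, adjusted p = 2.42e-06 and 1.48e-05), while COL4A1 and COL4A2 fell. COL9A2, a chain of a cartilage collagen, fell (-0.84 ± 0.23 and -1.38 ± 0.25 in EV and Tpm2.1 cells). In EV cells it was lower at 1 day (-1.29) and 2 days (-1.66), and at 4 days it stood at 0.797 and 1.03 against 0.959 and 0.829 in attached cells.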
